A study of Mus musculus with 4 samples.

Results

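The genes described here encode the antigen-presenting molecules of the major histocompatibility complex (MHC). The set holds 7 of the 27998 genes in the count tables, chosen by name: 3 of class I (B2m, H2-D1 and H2-K1) and 4 of class II (Cd74, H2-Aa, H2-Ab1 and H2-Eb1). They were followed in endothelial cells of the C57Bl6J mouse heart at 4 stages, embryonic day 12 (E12), embryonic day 15 (E15), postnatal day 2 (P2) and 8-week-old adult, with no genetic change or treatment in any group. Hearts of 37, 48, 21 and 6 animals were pooled to give 1 droplet library per stage. The cells were sorted as CD31 positive and CD45 negative, that is, with an endothelial surface protein and without a surface protein of leukocytes (white blood cells). Digestion differed with stage, the adult suspension alone went through red cell lysis, and frozen cells were thawed before loading, with a dead-cell removal kit for E12 and E15 and a second sort of live cells for P2 and adult. Stage, library and handling therefore cannot be told apart, no test between stages is possible, and all intervals given are exact 95% intervals that cover counting error only.

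MHC class I molecules sit on nearly all nucleated cells and show peptides made inside the cell to CD8 T cells. A heavy chain, here the product of H2-K1 or H2-D1, pairs with the common light chain beta-2 microglobulin, the product of B2m. Class II molecules pair an alpha with a beta chain, as H2-Aa with H2-Ab1, and H2-Eb1 codes for another beta chain. They are chaperoned by the invariant chain Cd74 and show peptides taken up from outside to CD4 T cells. They are best known from dendritic cells, macrophages and B cells, although endothelium can carry them. Interferon gamma raises both classes, class I through the regulator Nlrc5 and class II through Ciita.

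All members but B2m and Cd74 lie in the MHC region of chromosome 17, in the mm10 build (GRCm38): H2-K1 at chr17:33996017-34000347 on the minus strand, H2-Ab1 at chr17:34257689-34269419 on the plus strand, H2-Aa at chr17:34282744-34287823 on the minus strand, H2-Eb1 at chr17:34305867-34316674 on the plus strand and H2-D1 at chr17:35262730-35267499 on the plus strand. B2m lies at chr2:122147686-122153083 on the plus strand. The 250 bases before the transcription start are printed for the members with an entry in the RefSeq table (build GRCm38.p6). Whether these bases bear on the levels of the members was not tested. The gene spans above are from GENCODE, and the RefSeq starts lie within 1 base of theirs except for H2-D1, whose RefSeq start is 364 bases inside the span, so that its whole window lies within the GENCODE gene; H2-K1 also has a second RefSeq start 14 bases further in, not used for the window printed. Capitals mark the Y box (CTGATTGG), the X box core (ACNGATG), the kB core (GGGATTCC) and the interferon response core (GAAANNGAA), each searched on both strands.
B2m, chr2:122147437-122147686, plus strand: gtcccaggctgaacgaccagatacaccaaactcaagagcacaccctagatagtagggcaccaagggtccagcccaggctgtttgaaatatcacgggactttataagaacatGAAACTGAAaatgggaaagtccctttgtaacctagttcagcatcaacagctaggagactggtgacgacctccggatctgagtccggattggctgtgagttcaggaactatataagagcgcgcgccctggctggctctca
H2-D1, chr17:35262844-35263093, plus strand: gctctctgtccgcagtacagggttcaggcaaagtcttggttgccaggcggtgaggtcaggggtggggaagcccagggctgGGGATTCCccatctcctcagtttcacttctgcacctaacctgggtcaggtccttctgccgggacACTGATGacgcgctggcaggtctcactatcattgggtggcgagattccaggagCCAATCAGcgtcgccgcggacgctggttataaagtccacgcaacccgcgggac
H2-K1, chr17:34000348-34000597, minus strand: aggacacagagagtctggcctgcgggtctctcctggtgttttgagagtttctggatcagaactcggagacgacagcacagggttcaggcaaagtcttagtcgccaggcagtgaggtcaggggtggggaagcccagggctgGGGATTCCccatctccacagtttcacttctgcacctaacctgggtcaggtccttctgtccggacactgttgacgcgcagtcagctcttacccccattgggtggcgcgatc
H2-Aa, chr17:34287824-34288073, minus strand: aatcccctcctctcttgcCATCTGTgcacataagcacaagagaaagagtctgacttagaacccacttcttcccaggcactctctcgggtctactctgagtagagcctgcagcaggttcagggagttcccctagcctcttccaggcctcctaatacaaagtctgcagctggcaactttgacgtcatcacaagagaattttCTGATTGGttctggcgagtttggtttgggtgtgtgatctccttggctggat
H2-Eb1, chr17:34305617-34305866, plus strand: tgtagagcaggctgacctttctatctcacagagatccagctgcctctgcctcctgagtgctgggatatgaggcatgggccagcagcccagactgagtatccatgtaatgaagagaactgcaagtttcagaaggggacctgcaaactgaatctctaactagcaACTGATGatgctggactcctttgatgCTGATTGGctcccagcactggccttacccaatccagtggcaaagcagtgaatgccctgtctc
Exact matches of the Y box and of the X box core both lay in the windows of H2-D1, H2-Aa and H2-Eb1, and neither in those of B2m and H2-K1. The H2-K1 window holds actgttg where that of H2-D1 holds ACTGATG, and the B2m window holds cggattgg, close to CTGATTGG. The exact strings cannot match these. The lack of a match therefore does not show that B2m and H2-K1 lack such elements. In H2-D1 the X box core and the Y box began at -106 and -53 from the start, in H2-Eb1 at -88 and -62. In H2-Aa they began at -232 and -51. In H2-D1 and H2-Aa the matches were on opposite strands. The window of the second H2-K1 start ends in ccaatc, the opening letters of CCAATCAG, the Y box on the other strand. The printed H2-K1 window stops before these letters, so it cannot show whether the box is there. Over the 32851 promoters of the table, 3.83% held the Y box and 8.31% the X box core in the same 250 bases. The kB core lay before both class I heavy chains and in 0.889% of all promoters. The interferon response core lay before B2m and in 7.13% of all promoters. Its search string fixes which end holds the longer run. Both class I heavy chain windows hold tttcacttc after the kB core, with the longer run at the other end, which the string cannot match. The lack of a match there therefore does not show that the heavy chains lack such an element. A match of letters is not a measured site.

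Cells were placed in classes by their own UMIs (unique molecular identifiers, 1 per captured transcript). Endocardial cells, the inner lining of the chambers, had more UMIs of Npr3 and Tmem108 than of Fabp4, Cldn5 and Aplnr; coronary cells had at least 2 UMIs of the latter and more than of the former; and large artery-gene cells had at least 2 UMIs of Fbln5, Eln, Gkn3 and Clu. Cells with a UMI of Tyrobp, Fcer1g or C1qb, genes of macrophages and related leukocytes, were left out. From E12 to adult, endocardial cells numbered 1700, 2105, 1080 and 75, coronary cells 111, 1248, 4580 and 4035, and large artery-gene cells 1083, 586, 1943 and 752. Endothelial genes were then checked as the share of cells with 2 or more UMIs of Cdh5, Pecam1, Egfl7, Kdr, Tie1 and Emcn together. In embryonic large artery-gene cells this share was only 16.6% (E12) and 37.9% (E15), in endocardial cells 58.4% and 67.8%, and in coronary cells 88.3% and 74.9%, while in P2 and adult classes it was 92.7% to 99.9%. Eln, an elastic fibre gene that other cells also use, made up most of the rule UMIs of large artery-gene cells at E12 (2399 CPM, the gene's share of all UMIs scaled to a fixed total, against 884 CPM for Fbln5), so these cells are called by their genes and not by a cell type. In the adult they also carried Dcn, a fibroblast gene, at 2512 CPM, and the 75 adult endocardial cells carried it at 2357 CPM, against 465 CPM in adult coronary cells.

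The classes overlapped, and their reach differed between libraries. Large artery-gene cells made up 59.4% of endocardial and 25.5% of coronary cells at P2, and these shares were 61.3% and 16.3% of the adult classes. The coronary rule took in 95.1% of adult and 77.8% of P2 barcodes but 1.94% at E12. With each cell drawn down to 500 UMIs, P2 large artery-gene cells numbered 471 instead of 1943, and adult coronary cells 3895 instead of 4035. The part of depth in the differences between libraries was not tested. Called barcodes numbered 5732, 6062, 5884 and 4242 with median totals of 1241, 1013, 4531.5 and 1510 UMIs from E12 to adult, and any pair of libraries shared 25 to 60 barcodes.

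B2m, the class I light chain, was measured in coronary cells at 464 CPM (382 to 559) on E12, 742 CPM (701 to 784) on E15 and 1315 CPM (1300 to 1330) on P2. Adult coronary cells had 5505 CPM (5450 to 5560). The adult level was 4.19-fold (4.12 to 4.25) the P2 level. Each step was upward, and the same order was seen in endocardial cells (423, 605, 840 and 4780 CPM) and in large artery-gene cells (268, 440, 1026 and 4453 CPM). The make-up of the large artery-gene class differed between stages. Its cells with 2 or more endothelial UMIs numbered 180 of 1083 at E12, 222 of 586 at E15, 1935 of 1943 at P2 and 697 of 752 in the adult.

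H2-D1, a class I heavy chain, stood in coronary cells at 58.5 CPM (32.0 to 98.2) on E12, 157 CPM (138 to 177) on E15 and 809 CPM (797 to 820) on P2. Adult coronary cells had 3362 CPM (3320 to 3405). Of the 2 members with at least 20 UMIs over E12 and E15, B2m and H2-D1, it alone was past 2-fold between them, 2.68-fold (1.57 to 4.97) in coronary, 3.15-fold (2.36 to 4.24) in endocardial and 2.67-fold (1.71 to 4.20) in large artery-gene cells. From E15 to P2 its ratio was 5.16 (4.56 to 5.85) in coronary cells and from P2 to adult 4.16 (4.08 to 4.24). Endocardial H2-D1 went from 26.2 and 82.4 CPM in the embryo to 550 CPM at P2 and 3463 CPM in the adult.

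H2-K1, the other heavy chain, was close to the counting limit in the embryo, with 2 UMIs in all E12 coronary cells (8.36 CPM, 1.01 to 30.2) and 10 UMIs at E15 (6.01 CPM, 2.88 to 11.1). It reached 89.0 CPM (85.3 to 92.9) at P2 and 1282 CPM (1256 to 1309) in adult coronary cells. Its P2 to adult ratio of 14.4 (13.7 to 15.1) was above those of B2m and H2-D1 with no overlap of the intervals, and in endocardial cells it was 41.4 (35.2 to 48.6), from 47.6 to 1969 CPM. The heavy chains are similar in sequence, and reads that fit several genes could be lost or split: of 451 windows of 50 bases in the last 500 bases of the longest annotated transcript, 2 windows of H2-K1 were also in H2-D1.

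The class II genes were almost absent at E12, E15 and P2, and no stage between P2 and the 8-week adult was measured. The 4 together had 6, 0 and 7 UMIs at E12 in endocardial, coronary and large artery-gene cells, and 17, 8 and 15 UMIs at E15. At P2 the summed level was 3.57 CPM (2.85 to 4.42) in coronary cells, from 84 UMIs in 4580 cells. In the adult it was 172 CPM (162 to 182), from 1212 UMIs in 4035 cells, 48.1-fold (38.5 to 60.8) the P2 level.

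Cd74, the invariant chain, was at 0 UMIs in E12 coronary cells, where 0 allows up to 15.4 CPM. It had 2 UMIs at E15, stood at 1.23 CPM (0.825 to 1.77) at P2 and at 92.3 CPM (85.3 to 99.6) in the adult, 74.9-fold (51.6 to 113) the P2 level. H2-Aa, the alpha chain, had no UMI in E12 or E15 coronary cells, 0.510 CPM at P2 and 24.7 CPM (21.1 to 28.6) in the adult, a ratio of 48.4 (27.0 to 95.4). H2-Ab1, its beta chain, went from 0 UMIs at E12 and 3 at E15 to 0.977 CPM at P2 and 40.7 CPM (36.1 to 45.7) in the adult, a ratio of 41.6 (27.2 to 66.7). H2-Eb1, the other beta chain, had the lowest ratio of the 4, 16.7 (10.2 to 28.5), from 0.850 to 14.2 CPM. The intervals of these ratios overlapped for Cd74, H2-Aa and H2-Ab1, while that of H2-Eb1 overlapped those of H2-Aa and H2-Ab1 and not that of Cd74.

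**Figure D1:**
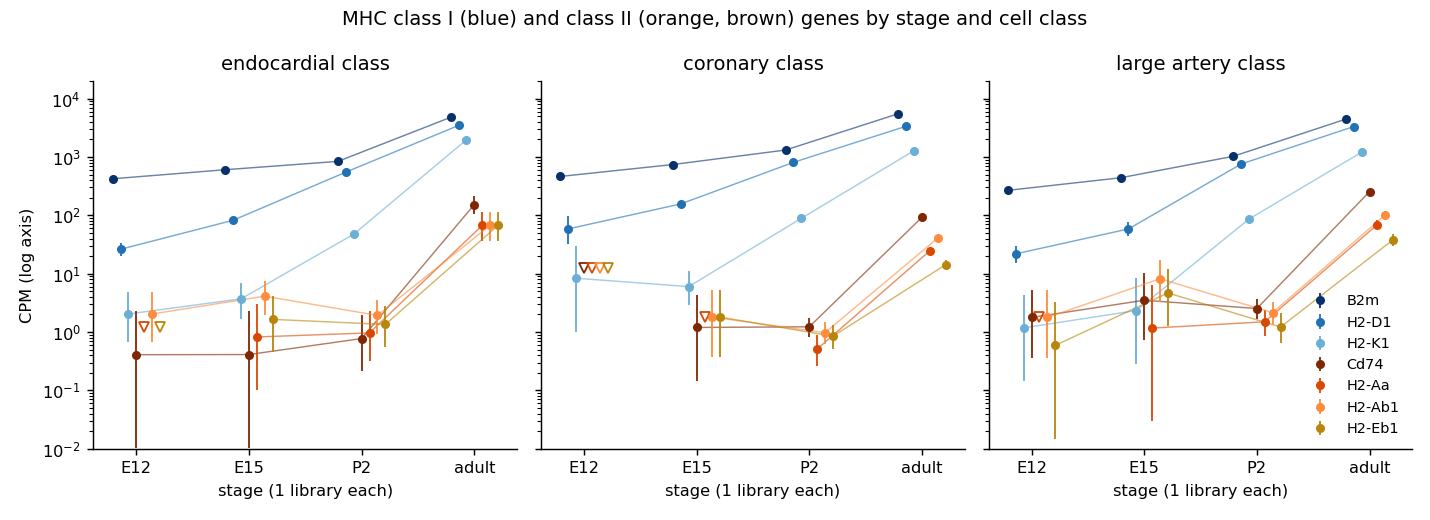
CPM (log axis) of the 7 genes at each stage in the 3 cell classes; each point is 1 library, bars are exact 95% Poisson intervals, and open triangles stand at the level of 3 UMIs where a gene had none. The class I genes go up at each step in every class except H2-K1 between E12 and E15 in coronary cells (8.36 and 6.01 CPM). Where seen, the class II genes stay under 10 CPM through P2, and they stand between 14.2 and 255 CPM in the adult. In E12 coronary cells none was seen, and the triangles there stand above 10 CPM.

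The share of members past 2-fold was set against that of all genes with at least 20 UMIs over both stages. Between E12 and E15, 1 of the 2 members with enough UMIs (B2m and H2-D1) was past 2-fold in each class, when 3.86% of all genes were in endocardial, 12% in coronary and 5.36% in large artery-gene cells. Between E15 and P2 the counts were 2 of 4 in endocardial cells (13% of all genes), 2 of 6 in coronary cells (17.3%) and 3 of 5 in large artery-gene cells (20.2%), all of them class I. H2-Ab1 in endocardial and large artery-gene cells, at 0.470-fold (0.175 to 1.26) and 0.263-fold (0.109 to 0.725), and H2-Eb1 in coronary cells, at 0.471-fold (0.140 to 2.48), were under 0.5-fold at P2, 1 member in each class, when 5.61% of all genes were in endocardial, 5.67% in coronary and 9.68% in large artery-gene cells; these 3 were named after their values were seen. At this step the median log2 ratio of all genes with enough UMIs was 0.24 to 0.31. P2 held more UMIs in each class, so genes met the minimum mainly through P2. The part of each ratio shared with other genes was not tested.

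Between P2 and adult all members with enough UMIs were past 2-fold: 6 of 6 in endocardial cells (15.3% of all genes), 7 of 7 in coronary cells (11.1%) and 7 of 7 in large artery-gene cells (10.8%). A 0 was set to 3 counts, and adult endocardial cells held only 208774 UMIs against 5168514 at P2. The 15.3% can therefore include genes with few P2 UMIs and none in the adult. Summed class I was 4.59-fold (4.54 to 4.64) higher in coronary, 7.10-fold (6.77 to 7.46) in endocardial and 4.80-fold (4.71 to 4.90) in large artery-gene cells. Summed class II was 48.1-fold, 70.5-fold (44.5 to 115) and 62.9-fold (49.9 to 80.2) higher in the same order, with few UMIs behind the P2 side (84, 26 and 79). The size of the class II ratios depended on the cells kept. The endocardial ratio was 15 without cells that had a UMI of broad leukocyte lists, 28.1 with cells thinned to 500 UMIs, 36.9 within the study's upper limits on UMIs, genes and mitochondrial share and 218 without cells that meet the large artery rule. The coronary ratio was 29.8 without cells of the broad leukocyte lists, 83.2 thinned, 95.2 with no leukocyte removal and 245 without the 1% of cells richest in class II at each stage. At P2, 91.7% of the coronary class II UMIs lay in 45 cells, and only 52 cells had any. The endocardial count of 6 of 6 fell to 3, all of class I, under 6 alternatives in which the class II genes had under 20 UMIs.

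**Figure D2:**
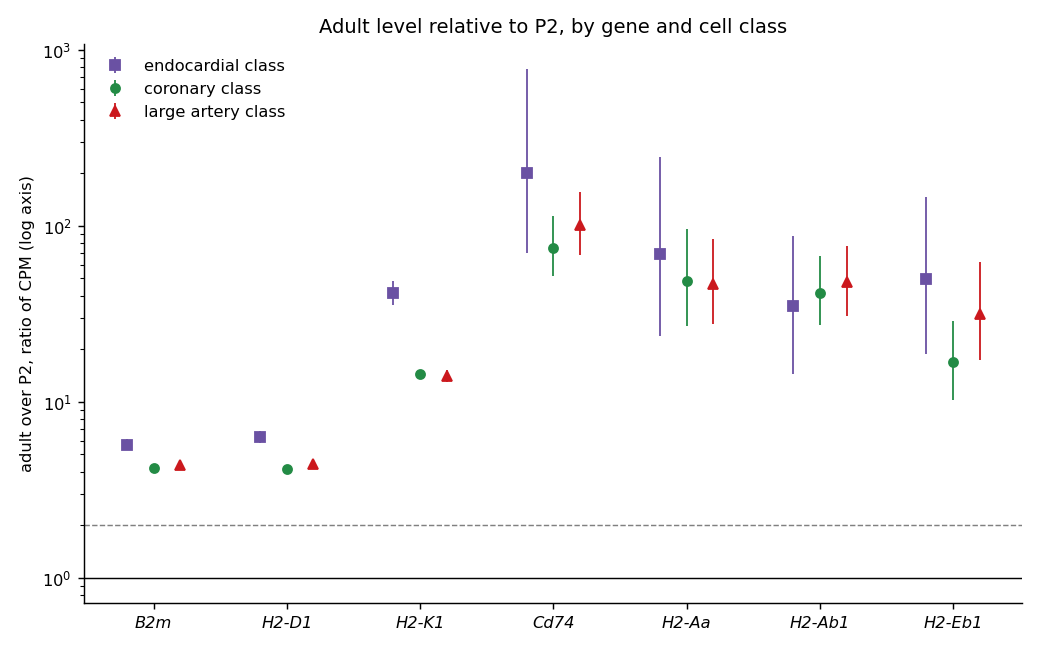
Ratio of adult to P2 CPM (log axis) for each gene in endocardial (squares), coronary (circles) and large artery-gene cells (triangles), with exact 95% intervals for counting error; the solid line is a ratio of 1 and the dashed line a ratio of 2. All 21 points lie above 2, B2m and H2-D1 between 4.16 and 6.30, H2-K1 between 13.9 and 41.4, and the class II genes between 16.7 and 198.

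Depth per cell fell from a median of 4556 UMIs in P2 coronary cells to 1480 UMIs in adult ones, so shares of cells with a UMI were compared after every cell was thinned to 500 UMIs. B2m was then seen in 46.0% (44.5 to 47.4) of P2 and 89.0% (88.0 to 89.9) of adult coronary cells, against 96.3% and 98.1% before thinning. H2-K1 was seen in 4.78% of P2 and 45.1% of adult coronary cells. Stromal cells of the adult library (141 cells, by Pdgfra, Pdgfrb, Dcn, Col1a1 and Rgs5) had B2m in 61.7% (53.1 to 69.8) and H2-K1 in 23.4% (16.7 to 31.3) of cells at the same depth. The stromal rule did not leave out cells of the classes. Only 33 adult barcodes without leukocyte markers were in no class, so most of these stromal cells also met a class rule.

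Class II was rare at that depth. Cd74 was seen in 1.98% (1.58 to 2.46) of adult coronary cells and in 7.05% (5.32 to 9.12) of adult large artery-gene cells, against 0.709% (0.0180 to 3.89) of adult stromal cells. H2-Ab1 was seen in 1.56% (1.20 to 1.99) of coronary, 4.65% (3.26 to 6.41) of large artery-gene and 2.84% (0.778 to 7.10) of stromal cells. Its coronary share was therefore not above that of the stromal cells, most of which also met a class rule. At P2, Cd74 was seen in 1 of 4580 coronary cells.

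**Figure D3:**
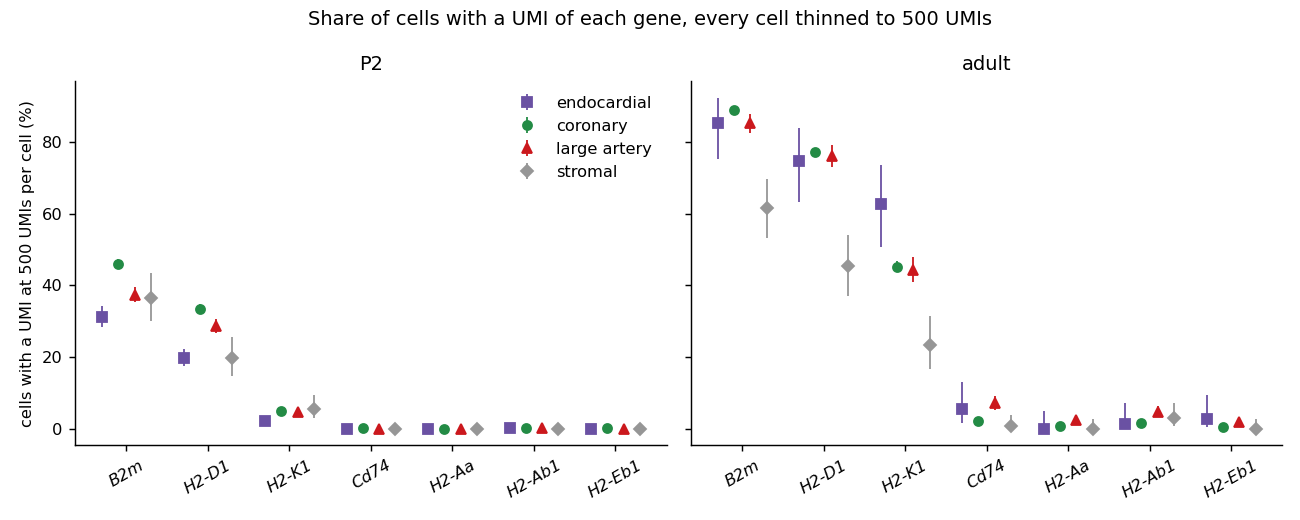
Percent of cells with a UMI of each gene after every cell was thinned to 500 UMIs, in the P2 and adult libraries, with exact 95% binomial intervals. Grey diamonds are stromal cells, which were not kept apart from the classes. The class I genes are higher in the adult in every class (B2m at 85.3% to 89.0% against 31.2% to 46.0% at P2 in the 3 endothelial classes), while no class II gene passes 7.05% of cells.

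Within the adult library, which removes the difference between libraries, class I and class II were placed differently. Coronary cells with large artery genes (658 cells) had 508 CPM of class II against 77.3 CPM in the other 3377 coronary cells, a ratio of 6.57 (5.83 to 7.41). All 4 class II members were past 2-fold there, Cd74 at 7.43-fold (6.29 to 8.79), H2-Aa at 6.60-fold (4.79 to 9.16), H2-Ab1 at 5.56-fold (4.36 to 7.12) and H2-Eb1 at 4.92-fold (3.25 to 7.50), when 7.87% of all genes were. None of the 3 class I members was: H2-D1 stood at 1.04-fold (1.01 to 1.07), H2-K1 at 0.915-fold (0.869 to 0.963) and B2m at 0.792-fold (0.772 to 0.813). At P2 the class II ratio between the same groups was 3.79 (2.40 to 6.07), from 51 and 33 UMIs. The class II intervals here and in the adult subclasses below do not cover the clumping of UMIs within cells. In adult coronary cells, 63.1% of class II UMIs lay in 40 cells. Under alternative choices of cells the adult ratio of summed class II ranged from 1.73 to 12.4, beyond its interval on both sides.

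Leading genes of earlier clusters split the adult coronary cells further. Class II was at 46.6 CPM (39.4 to 54.8) in the 1782 cells led by capillary genes (Timp4, Car4, Rgcc), 299 CPM (278 to 321) in the 1393 led by artery genes (Cxcl12, Glul, Alpl, Mecom) and 387 CPM (320 to 464) in the 138 led by vein genes (Vwf, Prss23, Nr2f2, Ptn). Summed class I ran the other way, at 10835 CPM (10720 to 10951), 9982 CPM (9860 to 10106) and 7446 CPM (7141 to 7760). Between capillary and artery cells this fall came from B2m, at 0.841-fold (0.822 to 0.860) in artery cells. There H2-D1 stood at 1.04-fold (1.01 to 1.06), and H2-K1 at 0.996-fold with an interval that included no change. In vein cells B2m, H2-D1 and H2-K1 were all lower than in capillary cells, at 0.644-fold, 0.723-fold and 0.798-fold. The large artery genes and the subclass genes each went with class II: among cells without large artery genes the class II levels were 34.9 CPM (28.6 to 42.2) in capillary, 110 CPM (93.9 to 128) in artery and 194 CPM (127 to 285) in vein cells, and among cells with them 351, 562 and 540 CPM.

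**Figure D4:**
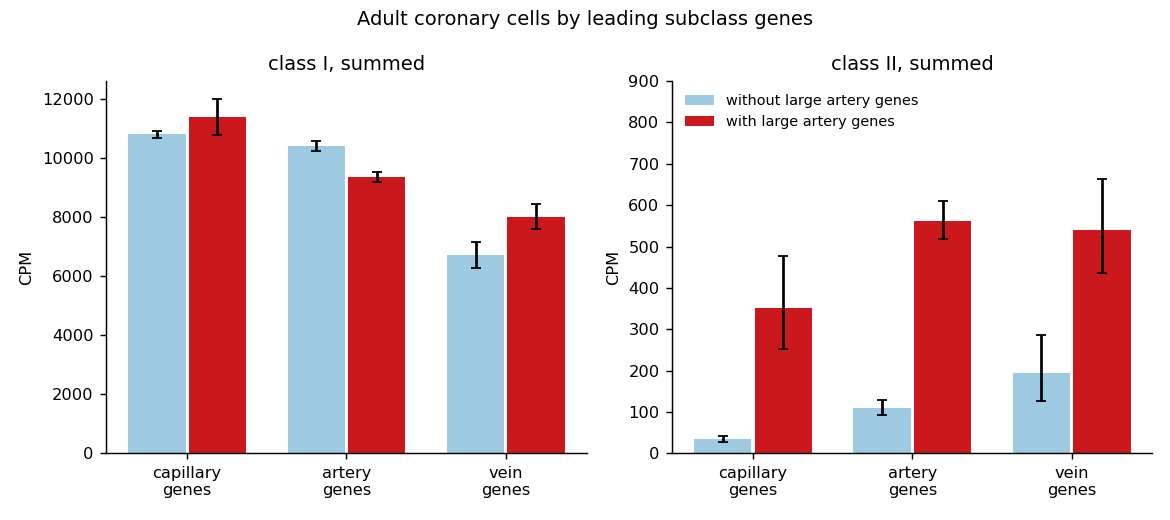
CPM of the summed class I (left) and class II (right) genes in adult coronary cells led by capillary, artery or vein genes, split by the large artery rule, with exact 95% Poisson intervals. Class II is higher with large artery genes in each subclass and lowest in capillary cells without them (34.9 CPM), while class I differs by less than 2-fold between all 6 groups.

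Few cells carried most of the class II RNA. In adult coronary cells, 63.1% of its UMIs lay in 40 cells (the top 1%), against 4.26% of class I UMIs in the cells richest in class I. A top share also depends on abundance, and these cells held 1212 class II but 71618 class I UMIs. In all, 55 cells had 5 or more class II UMIs. Of these 55, 76.4% met the large artery rule, against 13.9% of the 3720 coronary cells with no class II UMI. The 55 cells were deeper (medians of 2002 and 1462 UMIs), the rule is a cut on UMIs, and the part of depth in this difference was not tested. Of the large artery rule genes they had more Clu (6.07-fold, 5.14 to 7.13), Eln (5.24-fold, 3.84 to 7.03) and Fbln5 (4.78-fold, 3.96 to 5.72), while Gkn3 had 1 UMI (0.478-fold, 0.0120 to 2.72). Vein genes were also higher, Ptn at 12.4-fold (7.75 to 19.2), Prss23 at 5.76-fold (3.61 to 8.81) and Vwf at 2.72-fold (1.76 to 4.04), with Nr2f2 at 1.58-fold (0.572 to 3.50). The artery subclass genes were mixed, with Alpl at 3.16-fold (2.42 to 4.05), Glul at 1.85-fold, Mecom at 1.81-fold and Cxcl12 at 0.496-fold (0.406 to 0.599), and other arterial genes were higher, Gja5 at 7.37-fold (5.07 to 10.4) and Sema3g at 5.15-fold (3.67 to 7.06). The 3 capillary genes were lower, Car4 at 0.0650-fold (0.0134 to 0.190), Timp4 at 0.159-fold (0.0686 to 0.314) and Rgcc at 0.254-fold (0.194 to 0.328), as was Fabp4 (0.481-fold, 0.455 to 0.507). H2-DMb1 and H2-DMa, which load peptide onto class II, stood at 76.0-fold (43.2 to 136) and 57.4-fold (29.1 to 114), whereas H2-K1 was at 0.992-fold (0.845 to 1.16). The cells were chosen by their class II UMIs and these genes after their values were seen, so the values describe them and test nothing.

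Class II genes were found in the same cells. After thinning to 1000 UMIs, H2-Aa was seen in 24.2% (16.2 to 33.9) of the 99 adult coronary cells with Cd74 and in 1.08% (0.739 to 1.52) of the 2965 without, and H2-Eb1 in 20.2% (12.8 to 29.5) and 0.405% (0.209 to 0.706). Cells with and without an H2-K1 UMI had Cd74 at 3.30% (2.58 to 4.16) and 3.07% (2.06 to 4.38).

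RNA of leukocytes was measured beside the class II genes, since leukocytes hold far more of them. The 51 adult cells removed for Tyrobp, Fcer1g or C1qb had 83.8-fold (78.2 to 89.9) the class II level of coronary cells, and 0.965-fold (0.918 to 1.01) their class I level. A list of 13 other leukocyte genes had 133 UMIs in all adult coronary cells (18.8 CPM, led by Lyz2), with 1 of the 13, Cd3e, at 0 UMIs. Class II UMIs per UMI of these 13 genes numbered 1.15 in the removed cells, 3.84 in coronary cells without large artery genes and 35.7 in those with them. The removed cells were picked by genes of macrophages and related leukocytes, and the 13 include Lyz2, C1qa, C1qc and Csf1r. The value of 1.15 therefore cannot stand for B cells or dendritic cells, and the source of the class II UMIs was not tested. Among the 55 cells rich in class II, Lyz2, C1qa, C1qc, Csf1r and Flt3 were at 0 UMIs, Cd52 had 6, Cd79a 4 and Ptprc 2. Against the 3720 coronary cells with no class II UMI, Cd52 stood at 148-fold (26.4 to 1495), Cd79a at 98.4-fold (14.1 to 1088) and Ptprc at 24.6-fold (2.22 to 172). The genes at 0 UMIs were also rare in those 3720 cells, with 39 UMIs of Lyz2 and 1 of Csf1r. Their absence from the 55 cells still allows higher levels, for Lyz2 up to 4.88-fold. Any of the 13 genes was seen in 3 of the 55 cells. The richest cell (95 of 1672 UMIs) had 14 UMIs of the 13 genes, 5 of them from the B cell genes Cd79a, Cd79b and Ms4a1, and none of Cdh5 or Pecam1; the next 4 had none of the 13 and 3 to 10 UMIs of Cdh5 and Pecam1. Without the 97 coronary cells that had any of the 13 genes, class II stood at 157 CPM (148 to 166), and the ratio of cells with to cells without large artery genes was 8.80.

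Interferon-responding coronary cells, those with at least 2 UMIs of Ifit1, Ifit3, Iigp1, Rsad2, Cxcl10 and Isg15, had 1.23-fold (1.21 to 1.26) the class I level of the other coronary cells at P2 and 1.14-fold (1.12 to 1.16) in the adult. Their summed class II level was 2.74-fold (1.74 to 4.30) at P2, from 39 and 45 UMIs, and 0.839-fold (0.741 to 0.949) in the adult. Without cells that had any of the 13 leukocyte genes, the adult ratio was 0.942 (0.828 to 1.07). At P2 Cd74 stood at 8.29-fold (3.53 to 21.6), from 21 and 8 UMIs in 0.825% and 0.139% of the cells. Its interval does not cover the clumping of UMIs within cells. The P2 intervals of H2-Aa (0.845 to 11.8), H2-Ab1 (0.619 to 4.23) and H2-Eb1 (0.192 to 2.45) included no change. In the adult, with all cells kept, Cd74 was at 0.812-fold (0.684 to 0.961), and the intervals of H2-Aa, H2-Ab1 and H2-Eb1 again included no change. Interferon cells were deeper (medians of 1891 and 1346 UMIs in the adult), and the part of depth in these ratios was not tested.

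Other genes of the pathway were read from lists by role, in coronary cells between P2 and adult, where 11.1% of all genes were past 2-fold higher. Of the other class I-like chains, 9 of the 11 with enough UMIs were past 2-fold, among them H2-Q4 (48.8 to 313 CPM, 6.41-fold, 5.97 to 6.89), H2-Q7 (9.09 to 212 CPM, 23.3-fold, 20.2 to 27.0), H2-T22 (3.47-fold, 3.19 to 3.77) and Fcgrt, the neonatal receptor for antibodies (2.26-fold, 2.11 to 2.43). Only Cd1d1, which presents lipids and was named after its value was seen, was under 0.5-fold (0.341, 0.264 to 0.434), when 13.6% of all genes were. The H2-Q genes are close copies of each other, and their reads may be split between them. Of the genes that make and load class I peptides, 9 of 13 were past 2-fold, among them the immunoproteasome subunits Psmb8 (5.84-fold, 5.48 to 6.23) and Psmb10 (3.50-fold, 3.27 to 3.76), the proteasome activator Psme1 (2.22-fold, 2.11 to 2.34) and tapasin, Tapbp (3.89-fold, 3.68 to 4.12). The 4 that were not, named after their values were seen, were the general folding helpers Calr (0.778-fold), Canx (0.838-fold) and Pdia3 (0.781-fold) and the activator Psme2 (1.97-fold).

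The class II pathway was less uniform. The other class II chains H2-DMb1 (0.170 to 10.5 CPM, 61.7-fold, 23.1 to 232), H2-DMa (0.637 to 6.94 CPM, 10.9-fold, 6.01 to 20.9) and H2-Ob, a brake on peptide loading (0.297 to 2.13 CPM, 7.15-fold, 2.74 to 20.7), were past 2-fold, 3 of 3 with enough UMIs. Of the genes that process class II antigens, 2 of 6 were: Cst3, a protease inhibitor (4.14-fold, 4.04 to 4.25), and Ifi30, a thiol reductase of lysosomes (3.90-fold, 2.52 to 6.07). Of the regulators, 3 of 15 were: Nlrc5 (0.255 to 8.36 CPM, 32.8-fold, 14.2 to 92.9), the interferon gamma receptor chain Ifngr1 (2.35-fold, 2.23 to 2.47) and Irf1 (2.13-fold, 1.96 to 2.32). Ciita, the regulator of class II, had 2 UMIs in adult and none in P2 coronary cells, too few for a ratio. The list median was 0.22 on the log2 scale against -0.00384 for all genes.

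Interferon response genes were past 2-fold in 17 of 19, among them Ifitm3 (2.12-fold, 2.09 to 2.16), Ly6e (3.79-fold, 3.71 to 3.86), Bst2 (2.14-fold, 2.07 to 2.21) and Isg15 (2.89-fold, 2.71 to 3.08). Between P2 and adult, 1 of 7 co-stimulatory and checkpoint genes was past 2-fold, Cd274, which codes for the ligand PD-L1 (1.61 to 34.3 CPM, 21.2-fold, 15 to 30.7). Cd80 had 1 UMI in adult coronary cells. At the earlier step, from E15 to P2, 17 of 19 interferon response genes, 8 of 13 genes of class I peptide supply, 6 of 10 other class I-like chains, 6 of 7 co-stimulatory and checkpoint genes, 4 of 14 regulators and 2 of 6 genes of class II processing were past 2-fold higher, when 17.3% of all genes were. In the contrast of adult coronary cells with and without large artery genes, none of the 13 class I peptide supply genes and none of the 19 interferon response genes was past 2-fold higher, when 7.87% of all genes were. Of the interferon response genes 3 were under 0.5-fold, when 5.11% of all genes were, and both measurable class II chains were higher, H2-DMb1 at 9.62-fold (5.66 to 17.0) and H2-DMa at 5.16-fold (2.82 to 9.63).

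**Figure D5:**
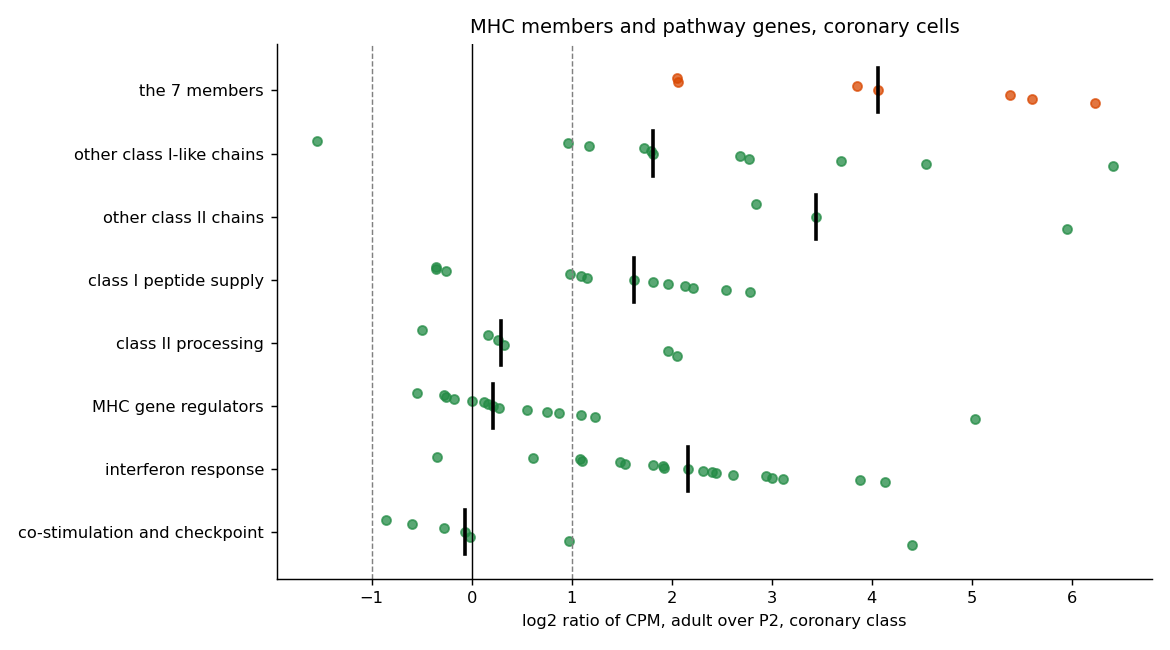
Log2 ratio of adult to P2 CPM in coronary cells for the 7 members (orange) and for the genes of each list with at least 20 UMIs (green); black bars are medians, and dashed lines mark 2-fold. The interferon response genes (median 2.16), the class I-like chains (1.81) and class I peptide supply (1.63) lie mostly to the right of 2-fold, and class II processing (0.29), the regulators (0.22) and the co-stimulatory genes (-0.06) mostly do not.

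The genes whose levels were most like those of the members over 12 points (4 stages by 3 classes, log2 of CPM plus 5, 12700 genes compared) were, for summed class I, Enpp4, Ceacam1, Sp100, Parp9, Tap2, H2-M3, Clec2d and Psmb9, with Pearson correlations of 0.982 to 0.989. For summed class II they were Gstt1, Gm16751, Tns2, Plxdc1, Per1, Fmo2, Atg4d and H2-Q6, with correlations of 0.963 to 0.977. Tap2, the peptide transporter, went from 2.40 CPM at E15 to 36.5 CPM at P2 and 169 CPM in adult coronary cells, and Psmb9 from 1.20 to 24.9 and 172 CPM. Summed class I and class II correlated at 0.862. The 12 points come from 4 libraries and the classes share cells, so these values are descriptions.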

How the data were processed

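The submitters' processing notes name Cell Ranger 2.2 and mm10. The deposited files hold raw UMI counts per gene and barcode in 1 library per stage (10x Genomics 3′ chemistry), with no normalization by the authors; the E12 file lists 737280 barcodes, of which those with 452 or more UMIs were kept here, and the other 3 hold called cells. Library totals were 8122358, 7079759, 29645059 and 7650091 UMIs from E12 to adult. No cell annotation was used here, so classes were rebuilt from rule genes, and every choice of member, list and rule was made with earlier results of these data known.

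Counts were summed over the cells of a class and divided by their total UMIs (CPM). Levels have exact Poisson, shares exact Clopper-Pearson and ratios exact conditional binomial intervals at 95%, which cover the counting error alone. No test was made, as each stage has 1 library; a gene was counted when its ratio passed 2-fold, with at least 20 UMIs over both groups and a 0 set to 3 counts. The ratio and count steps were tested on simulated data. Likeness used log2(CPM + 5) for genes with at least 50 UMIs over the 12 points. Doublets were kept in the values given; Scrublet (scanpy 1.11.5), with a score cut of 0.15, marked 376, 595, 252 and 104 barcodes from E12 to adult and served as an alternative. Thinning drew each cell to 500 or 1000 UMIs without replacement, in Python 3.11.15 with NumPy 2.4.6 and SciPy 1.17.1.

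The genes named were the 7 members, up to 4 genes per list past 2-fold in coronary cells between P2 and adult, those with most UMIs first, and the 8 genes most like each class sum. Alternatives were the study's upper limits on UMIs, genes and mitochondrial share, doublet removal, other leukocyte filters, other totals, class cuts and overlaps, a higher E12 minimum, removal of the richest 1% of cells, and thinning. No paired analysis was possible because no stage has a second library.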

Additional observations from a re-analysis of the deposited data

Results flagged for a closer look

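E12 barcodes with under 100 UMIs, which no comparison above uses, held 566 class I and 55 class II UMIs among 728196, above the 3 that a count of 0 allows. That is 75.5 CPM of class II, against 2.45 CPM in E12 endocardial cells, and 777 CPM of class I, against 451 CPM. Of the 6062 barcodes of called E15 cells, 98.9% were among these low E12 barcodes, with a mean of 17.0 UMIs each, against 21.4% of P2 and 21.2% of adult cell barcodes; they held 1 of the 55 class II UMIs.

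The summed class II level of interferon-responding against other coronary cells went in opposite directions, with ratios of 2.74 at P2 and 0.839 in the adult. The difference between the stages was not tested, and without cells with any of 13 leukocyte genes the ratios were 2.93 (1.83 to 4.67) and 0.942 (0.828 to 1.07). With all cells kept, only Cd74 of the class II genes had intervals that excluded no change, at 8.29-fold (3.53 to 21.6) and 0.812-fold (0.684 to 0.961). The cell richest in class II, with 95 UMIs, was then among the other adult cells. Single genes were not compared without the cells with leukocyte genes. Coronary against stromal cells also differed in direction for class II, with a ratio of 2.72 (1.91 to 4.02) in adult cells against 0.188 (0.117 to 0.313) in P2 cells and 0.240 (0.0909 to 0.574) in E15 cells. This difference was not tested, and the stromal side rests on 31, 23 and 19 UMIs. Stromal cells could also meet a class rule, as most of those in the adult did.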

How the results depend on the processing

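The adult class I and class II sums stayed above P2 in the 3 classes under all 11 alternatives, by 4.33 to 7.17-fold for class I and by 15 to 445-fold for class II. In adult coronary cells, class II stayed higher with large artery genes (1.73 to 12.4-fold) and class I stayed lower (0.860 to 0.913) under 10 alternatives. Endocardial ratios moved most, with 75 adult cells. Only 19 of these were left with the broad leukocyte lists and 29 without large artery-gene cells. At P2 the 10 endocardial cells richest in class II held 22 of its 26 UMIs, so their removal leaves almost no P2 side. Within the study's upper limits the endocardial ratios were 6.40 for class I and 36.9 for class II, and with doublets also removed 6.38 and 36.4. The broad leukocyte lists, whose genes Ebf1 and Zbtb46 endothelial cells also carry, gave endocardial ratios of 4.51 and 15, a coronary class II ratio of 29.8, a large artery-gene class I ratio of 4.35, and 0.860 and 10.1 for class I and II between coronary cells with and without large artery genes. With no leukocyte removal, the coronary class II ratio was 95.2 and the ratio between coronary cells with and without large artery genes 1.73. With large artery-gene cells out of the other classes, the endocardial class II ratio was 218. Without the richest 1% of cells the class II ratios were 445, 245 and 145 (endocardial, coronary, large artery-gene), the coronary class I ratio 4.66 and the class II ratio between coronary cells with and without large artery genes 12.4. Thinned to 500 UMIs, class I was 6.14, 4.37 and 4.33 and class II 28.1, 83.2 and 150 in the same order. Totals without mitochondrial and haemoglobin genes gave a coronary class I ratio of 4.64, and a class cut of 3 gave 7.71 for class II between coronary cells with and without large artery genes. Of the alternatives added after the data were seen, removal of cells with 13 leukocyte genes gave 8.80 there, and only cells with 2 or more endothelial UMIs gave 0.913 and 9.03 there, with class I ratios of 4.67 in coronary and 5.10 in large artery-gene cells. The endocardial count of members past 2-fold between P2 and adult fell from 6 to 3 (class I only, the class II genes having under 20 UMIs) within the upper limits, with doublets removed, with the broad leukocyte lists, without large artery-gene cells, without the richest cells and when thinned. Thinning also left 0 members past 2-fold between E12 and E15 in endocardial and coronary cells and 1 between E15 and P2 in endocardial cells, and endothelial cells alone left 0 in large artery-gene cells between E12 and E15. There the class II ratio, 4.24 in all cells, was 0.848, the 1 ratio that changed direction. The shares of all genes more than 2-fold higher between stages left their 95% intervals in 24 of 27 checks. These used a minimum of 50 UMIs, a minimum of 1 UMI, or ratios divided by the median ratio. The causes of these shifts were not tested except where fewer UMIs or cells are named. With 1 library per stage, the spread between animals is unknown, and class II at E12, E15 and P2 rests on 84 UMIs or fewer per class.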
